A study of Mus musculus with 5 samples.

Results

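Postn, Dcn, Lum, Col1a1, Col1a2, Col3a1, Fn1, Sparc, Cyr61 and Ctgf are 10 genes of the extracellular matrix that are commonly read as products of fibroblasts. They were picked by gene symbol from a table of 21983 genes, in all 5 libraries of a mouse RNA sequencing study. The libraries come from primary microglia, the macrophages that reside in brain tissue. The 2 libraries labelled knockout, here KO1 and KO2, carry the genotype Cx3cr1CreERT2 Ythdf2fl/fl, in which a tamoxifen-inducible Cre recombinase is made from the Cx3cr1 locus, used by microglia and some other macrophages, and can delete floxed Ythdf2 alleles. The 3 controls are Ythdf2fl/fl, so the floxed alleles are shared by both groups and Cre is carried by 1 group alone. Age, tamoxifen schedule and the number of animals per library are not given in the labels, so the spread between libraries, which is all that the p-values measure, may be technical. Ythdf2 encodes a reader of N6-methyladenosine that promotes decay of marked mRNAs.

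Fibroblasts of the meninges and of vessel walls build a collagen matrix in the brain. Fibrillar collagens give it strength, the small leucine-rich proteoglycans decorin (Dcn) and lumican (Lum) regulate fibril assembly, and matricellular proteins such as periostin (Postn), Sparc, Cyr61 and Ctgf modulate how cells attach to it and signal from it. Not all of these genes are private to fibroblasts: macrophages make fibronectin (Fn1), microglia are known to express Sparc, and Cyr61 and Ctgf are quickly induced in many cells by serum, stretch and attachment.

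RefSeq (GRCm38.p6) supplied promoter sequence for 5 of the 10 members. Those of Postn, Cyr61 and Col3a1 are shown because each ends within 4 bases of the gene's annotated 5′ end and because these genes differ in their pattern across the libraries. Each run is the 250 bases before the start, read 5′ to 3′ on the gene's strand, and capitals mark a match, on either strand, to one of the motifs searched: TATA box (TATAAA), TEAD (GGAATG), SMAD (CAGACA), SP1 (GGGCGG), the CCAAT box, AP-1 (TGANTCA) and the CArG box bound by SRF.
Postn, chr3:54360857-54361106, plus strand: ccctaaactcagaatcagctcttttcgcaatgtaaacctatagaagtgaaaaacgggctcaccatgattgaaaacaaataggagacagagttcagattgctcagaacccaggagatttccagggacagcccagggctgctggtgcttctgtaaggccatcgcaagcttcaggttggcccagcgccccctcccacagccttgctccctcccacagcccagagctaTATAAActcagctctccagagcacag
Cyr61, chr3:145649986-145650235, minus strand: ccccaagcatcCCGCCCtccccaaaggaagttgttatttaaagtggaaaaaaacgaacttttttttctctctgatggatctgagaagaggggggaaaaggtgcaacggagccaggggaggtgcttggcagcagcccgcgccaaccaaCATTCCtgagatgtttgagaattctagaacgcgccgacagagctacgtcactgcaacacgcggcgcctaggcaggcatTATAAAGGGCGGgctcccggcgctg
Col3a1, chr1:45311288-45311537, plus strand: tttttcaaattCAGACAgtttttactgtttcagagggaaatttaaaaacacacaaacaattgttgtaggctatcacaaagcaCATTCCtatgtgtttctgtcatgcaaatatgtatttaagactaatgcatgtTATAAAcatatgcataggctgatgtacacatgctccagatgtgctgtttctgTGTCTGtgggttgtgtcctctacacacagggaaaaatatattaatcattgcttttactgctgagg

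Postn and Cyr61 each hold a TATA box close to the start, beginning 26 and 25 bases before it, while the match in Col3a1 begins 117 bases before. A TATA box match was present in 12.4% of all 32851 windows of this length. Cyr61 holds 1 TEAD match, 103 bases before the start, and 2 SP1 matches, of which 1 directly abuts the TATA box. Col3a1 also holds 1 TEAD match and, unlike Postn and Cyr61, 2 SMAD matches. Over all windows TEAD was found in 12.6%, SMAD in 17.1% and SP1 in 32.7%. None of the 3 printed windows holds a CCAAT box (33.8% of windows), an AP-1 match (6.75%) or a CArG box (1.47%). These matches are letters in a window and say nothing of binding.

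The members were selected with the difference between these same 2 groups in view, so that difference is given for them as a description, without a test. Gene totals were 13947500 to 19577217 counts per library, and levels are given as CPM, counts scaled to equal library size after TMM normalization, in which 1 count is worth 0.0540 to 0.0743 CPM. Ythdf2, the targeted gene, was higher in KO1 and KO2 (103.5 and 127 CPM) than in the controls (57.0 to 69.2 CPM), so its gene count, which also takes reads from outside the deleted part, did not bear out the label. Every direction below is drawn from the labels. Cx3cr1, where Cre sits, was at 337 CPM in KO1, 97.7 CPM in KO2 and 681 to 992 CPM in the controls. Of the microglia markers, Csf1r was at 2372 to 4220 CPM, while P2ry12 and Tmem119 stayed at 5.35 to 34.1 CPM and Trem2 was at 0 in every library. Over all genes, 0 of 12543 passed edgeR's quasi-likelihood test at an adjusted p under 0.05 (0%), with 838 at an unadjusted p under 0.05 (6.68%); its lowest adjusted p was 0.231. DESeq2 called 232 of 13550 genes (1.71%) and limma-voom 0 (752 at an unadjusted p under 0.05).

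As a group, the matrix genes stood lower in KO1 and KO2, with large differences among them. Of the 9 members that passed the filter on low counts, 8 had a negative log2 fold change, against 48.9% of all genes tested, and 7 lay below -1, against 3.71%. Their median was -1.86, and the median of all genes tested was 0.01. KO1 and KO2 both lay below every control for Postn, Dcn, Lum, Col1a1, Col3a1, Sparc and Cyr61, which is 7 of 10 members, or 6 of the 9 tested, where 10.4% of genes tested showed this. For Lum this rests on counts of 0, which allow up to 0.178 CPM in KO1 and 0.162 CPM in KO2. Control 3 held 0.149 CPM of Lum, so this gene is not resolved from it. The gap to control 3 also rests on few counts for Dcn and Cyr61. Dcn was counted 5 times in KO2 and 8 times in control 3, and Cyr61 38 times in both KO1 and control 3. Ctgf, Col1a2 and Fn1 overlapped between groups, and 0 members lay above every control (9.85% of genes tested). edgeR called 0 of the 9. DESeq2 called 4 of the 10 lower (Postn, Dcn, Cyr61 and Ctgf), where 0.635% of genes were called lower. Since this contrast chose the members, nothing is read from these counts. In bulk RNA, fewer cells of a type and less RNA per cell cannot be told apart.

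**Figure D1:**
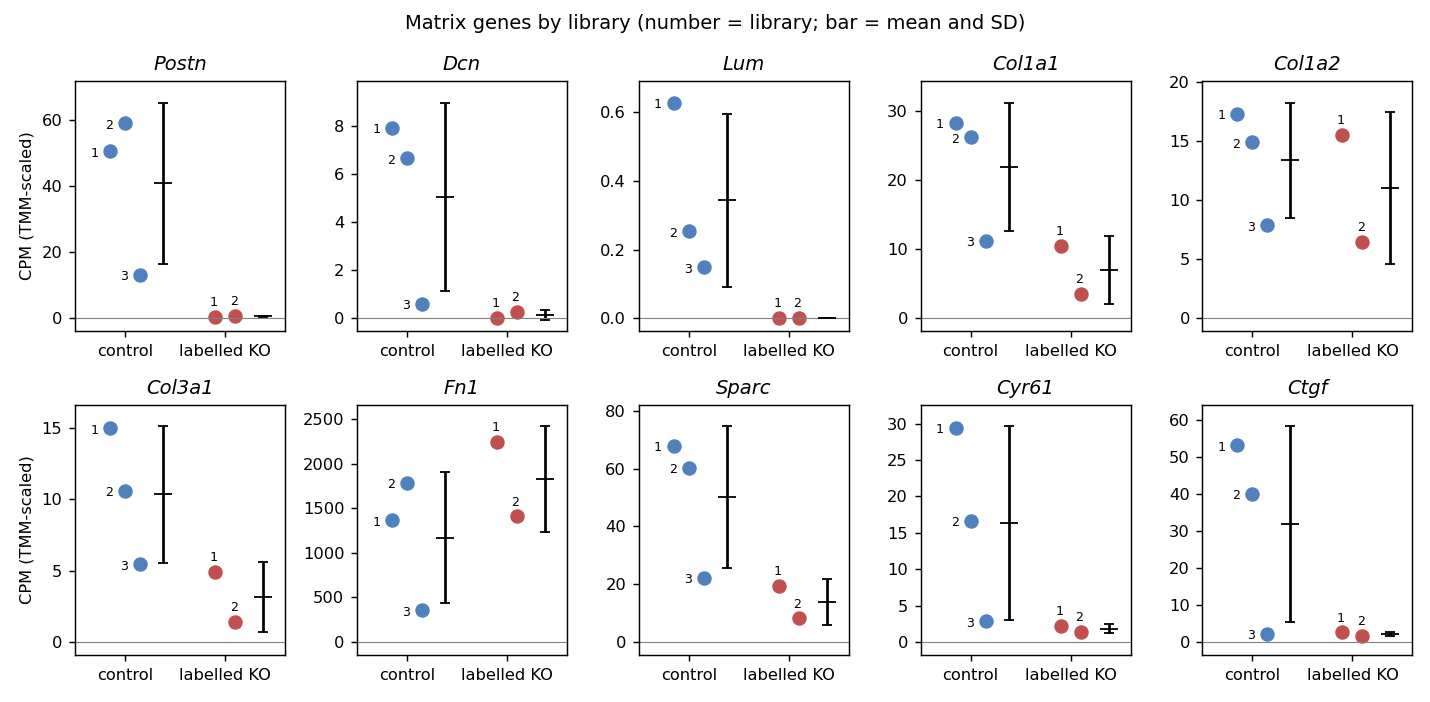
TMM-scaled CPM (linear axes) of each of the 10 matrix genes in the 3 controls (blue) and in KO1 and KO2 (red), numbered by library, with the group mean and SD in black. Control 3 is the lowest control in all 10 panels, and Postn is near 0 in KO1 and KO2.

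Periostin is a secreted matricellular protein that binds integrins and collagen and marks activated fibroblasts. Postn was counted 802, 930 and 177 times in controls 1 to 3, which is 50.4, 58.9 and 13.2 CPM. In KO1 and KO2 it was counted 8 and 12 times, or 0.476 and 0.649 CPM. The groups were thus far apart, although control 3 held 4.16 times less than the mean of controls 1 and 2. Group means were 40.8 ± 24.3 CPM (SD, n = 3) and 0.562 ± 0.122 CPM (SD, n = 2), which is 72.6-fold lower and a log2 fold change of -5.90 (SE 0.847). The 20 counts in KO1 and KO2 together have an exact 95% Poisson interval of 12.2 to 30.9, which covers counting error only. With any 1 library left out, the log2 fold change stayed between -6.32 and -5.54. Postn (ENSMUSG00000027750.16) lies on chromosome 3 at 54361109 to 54391037 (plus strand, GRCm38, GENCODE M21), and no exon of another gene overlaps its exons.

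Decorin and lumican are related small leucine-rich proteoglycans that bind collagen fibrils, encoded near each other on chromosome 10 (Dcn at 97479609 to 97518143, Lum at 97565128 to 97572703, both on the plus strand). Dcn was counted 126, 105 and 8 times in controls 1 to 3 (7.92, 6.65 and 0.595 CPM) and 0 and 5 times in KO1 and KO2. The count of 0 in KO1 allows up to 0.178 CPM, and KO2 stood at 0.270 CPM. Controls 1 and 2 were therefore apart from the 3 other libraries, with control 3 closer to KO2 than to its own group. Group means of 5.06 ± 3.92 CPM (SD, n = 3) and 0.135 ± 0.191 CPM (SD, n = 2) gave a log2 fold change of -4.30 (SE 1.26), which was -5.34 without KO2. Lum was counted 10, 4 and 2 times in the controls and 0 times in KO1 and KO2. Set against 3 counts over both KO libraries, the pooled control level, from 16 counts in all, was 4.17-fold higher. This is not a lower bound, because those 16 counts have an exact 95% Poisson interval of 9.15 to 26.0. Lum was too low to pass the filter used for edgeR, and DESeq2 did not call it (adjusted p 0.487).

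Collagen I is assembled from chains encoded by Col1a1 (chromosome 11, 94936224 to 94953042) and Col1a2 (chromosome 6, 4504814 to 4541544), and collagen III, which often shares its fibrils, from chains of Col3a1 (chromosome 1, 45311538 to 45349706). Controls 1 to 3 held 451, 414 and 151 Col1a1 counts and KO1 and KO2 176 and 66, which is 28.35, 26.2 and 11.2 CPM and 10.5 and 3.57 CPM. Its group means of 21.9 ± 9.34 CPM (SD, n = 3) and 7.02 ± 4.88 CPM (SD, n = 2) gave a log2 fold change of -1.63 (SE 0.619). Col3a1 had nearly the same profile, at 14.96, 10.6 and 5.43 CPM in the controls, 4.88 CPM in KO1 and 1.41 CPM in KO2 (log2 fold change -1.69, SE 0.680). For both genes, controls 1 and 2 were high, control 3 and KO1 were close together, and KO2 was lowest. The gap between the groups was narrow: with library totals in place of TMM, Col1a1 was at 11.2 CPM in KO1 and 10.8 CPM in control 3, so the groups overlapped, and Col3a1 was at 5.21 and 5.23 CPM in the same libraries. Without KO1 the log2 fold changes of Col1a1 and Col3a1 were -2.61 and -2.80, and without KO2 they were -1.06 and -1.07. Col3a1 shares 141 exonic bases with Gm47302, annotated on the same strand.

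Col1a2 did not follow its partner chain. It stood at 17.3, 14.9 and 7.88 CPM in controls 1 to 3, at 15.5 CPM in KO1 and at 6.43 CPM in KO2, so the groups overlapped. Its log2 fold change was -0.28 (SE 0.515), -1.07 without KO1 and 0.21 without KO2. Per kilobase of annotated exon, Col1a1 was 3.11, 3.34 and 2.70 times Col1a2 in controls 1 to 3, but 1.28 times in KO1 and 1.05 times in KO2. The lengths used, 6563 bases for Col1a1 and 12426 bases for Col1a2, are unions of all annotated exons. They set the level of this ratio alike in every library. The ratio of Col3a1 to Col1a1 on the same scale was 0.353, 0.270 and 0.323 in the controls, 0.312 in KO1 and 0.263 in KO2. The chains of collagen I thus stood in a different ratio in the groups, without overlap, while the ratio of Col3a1 to Col1a1 overlapped. These ratios were looked at after the values were known and carry no test.

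**Figure D2:**
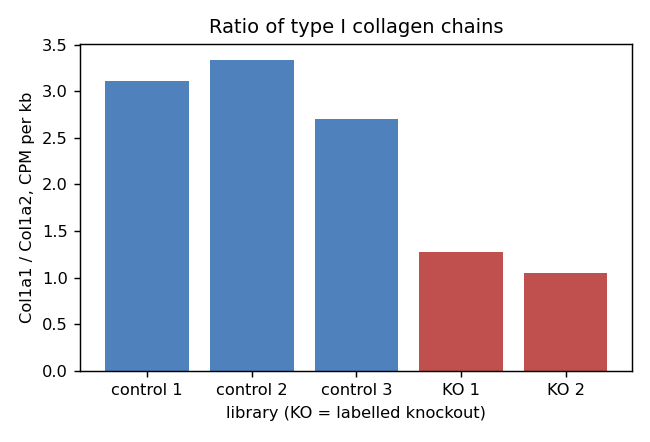
Ratio of Col1a1 to Col1a2 (CPM per kilobase of annotated exon, axis from 0) in each control (blue) and in KO1 and KO2 (red), 1 bar per library. The controls lie between 2.70 and 3.34, and KO1 and KO2 at 1.28 and 1.05.

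Sparc, a collagen-binding matricellular glycoprotein also called osteonectin (chromosome 11, 55394500 to 55423183, minus strand), was at 67.9, 60.2 and 22.2 CPM in controls 1 to 3. It was at 19.4 CPM in KO1, just below control 3, and at 8.16 CPM in KO2. Group means of 50.1 ± 24.5 CPM (SD, n = 3) and 13.8 ± 7.94 CPM (SD, n = 2) gave a log2 fold change of -1.86 (SE 0.615), which was -2.63 without KO1 and -1.36 without KO2. Its profile was close to those of Col1a1 and Col3a1. After centring each gene on its own mean, the root mean square difference in log2 CPM over the 5 libraries was 0.143 between Sparc and Col1a1, 0.145 between Col1a1 and Col3a1 and 0.217 between Sparc and Col3a1, the smallest values among all pairs of members. Postn did not keep a fixed ratio to Sparc: per kilobase it was 0.323, 0.426 and 0.259 times Sparc in controls 1 to 3, 0.0107 times in KO1 and 0.0346 times in KO2.

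Cyr61 and Ctgf, now named Ccn1 (chromosome 3, 145646976 to 145649981, minus strand) and Ccn2 (chromosome 10, 24595442 to 24598683, plus strand), encode related matricellular proteins of the CCN family that bind integrins and heparan sulphate and are widely used as readouts of the YAP and TEAD transcription regulators. Controls 1 to 3 held 469, 263 and 38 Cyr61 counts and KO1 and KO2 38 and 26, which is 29.5, 16.7 and 2.83 CPM and 2.26 and 1.41 CPM. Ctgf was counted 846, 631 and 29 times in the controls and 43 and 32 times in KO1 and KO2, or 53.2, 39.98, 2.16, 2.56 and 1.73 CPM in that order. For this pair, control 3 was far below controls 1 and 2: for Cyr61 it lay just above KO1, and for Ctgf it lay between KO2 and KO1, so Ctgf overlapped. Group means were 16.3 ± 13.3 CPM (SD, n = 3) and 1.83 ± 0.605 CPM (SD, n = 2) for Cyr61, and 31.8 ± 26.5 CPM (SD, n = 3) and 2.14 ± 0.586 CPM (SD, n = 2) for Ctgf. The log2 fold changes were -3.08 (SE 0.993) and -3.82 (SE 1.28), and without control 1 they were -2.34 and -3.23. In Ctgf, 665 exonic bases overlap Gm15270 on the other strand, and the strand setting of the counting is unknown here.

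Fn1 was higher in the mean of the KO libraries, within its error. Fibronectin is a large adhesive glycoprotein to which integrins bind, and Fn1 (chromosome 1, 71585520 to 71653200, minus strand) was the most abundant of the 10 genes, above 99.6% of the genes tested by mean CPM. It stood at 1365, 1785 and 356 CPM in controls 1 to 3, at 2244 CPM in KO1 and at 1407 CPM in KO2. The groups overlapped, and control 3 was the lowest library. Group means of 1169 ± 734 CPM (SD, n = 3) and 1825 ± 592 CPM (SD, n = 2) gave a log2 fold change of 0.64 (SE 0.662), which was 0.22 without control 3. Per kilobase, Fn1 was 27.0, 38.2 and 17.8 times Col1a1 in the controls, 120 times in KO1 and 222 times in KO2. Fn1 shares 292 exonic bases with Apol7d, annotated on the other strand.

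**Figure D3:**
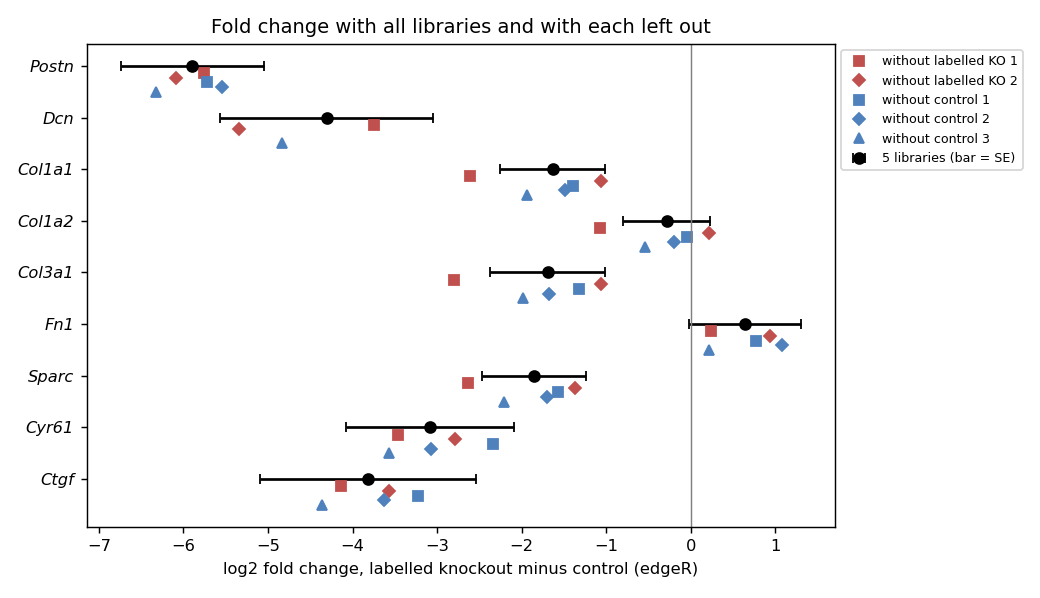
Log2 fold change (labelled knockout minus control, edgeR) of the 9 tested matrix genes with all 5 libraries (black, bar = SE) and with each library left out (coloured symbols). Postn stays between -6.32 and -5.54, Col1a2 crosses 0, and Dcn has no symbol without control 1 or control 2, where it was below the filter on low counts.

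Levels between genes can be set side by side only per length. Per kilobase of annotated exon, the order in the controls was Fn1 (100 ± 62.8), Sparc (13.2 ± 6.47), Ctgf (11.1 ± 9.26), Cyr61 (8.08 ± 6.60), Postn (4.69 ± 2.80), Col1a1 (3.34 ± 1.42), Col1a2 (1.07 ± 0.393), Col3a1 (1.05 ± 0.486), Dcn (0.866 ± 0.671) and Lum (0.140 ± 0.103), as mean CPM per kilobase ± SD with n = 3. Between neighbours in this order, mean ± SD did not overlap from Fn1 to Sparc and from Col1a1 to Col1a2, and it overlapped at the other steps. That spread is across libraries and does not compare genes within a library. Dcn was above Lum in each control, at 1.36, 1.14 and 0.102 against 0.257, 0.104 and 0.0607 in controls 1 to 3. The other overlapping steps changed order in some control. In the KO libraries (n = 2) Fn1 (156 ± 50.7) and Sparc (3.64 ± 2.10) again led. Col1a1 (1.07 ± 0.744), Cyr61 (0.908 ± 0.300), Col1a2 (0.883 ± 0.517) and Ctgf (0.749 ± 0.205) came next within their spread. Postn (0.0646 ± 0.0140), above all 3 collagens in the control mean but not in control 3, where Col1a1 was higher (1.71 and 1.51 CPM per kilobase), stood below all 3 here, and above Dcn (0.0231 ± 0.0327) and Lum alone. Lengths are unions of all exons in GENCODE M21, which may not be the annotation used for counting. A union can be longer than any single transcript, so the order of the genes depends on this choice.

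The controls differed widely among themselves in these genes. Control 3 was the lowest control for 10 of 10 members, where it was the lowest for 37.7% of all genes tested. The range of log2 CPM among the 3 controls was narrowest for Col1a2, at 1.12, whose CPM in controls 1 and 2 was on average 2.04 times that in control 3, and widest for Ctgf, at 4.55, with 21.6 times. Over all genes tested the median range was 0.57. For Ctgf, Dcn and Cyr61 the range was wider than for 99.8%, 98.9% and 98.7% of genes tested. Between KO1 and KO2, Postn differed by 0.36 on the log2 scale and Col3a1 by 1.71, with a median of 0.60 over all genes. In 7 members KO2 was lower than KO1, as in 48.7% of all genes tested.

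**Figure D4:**
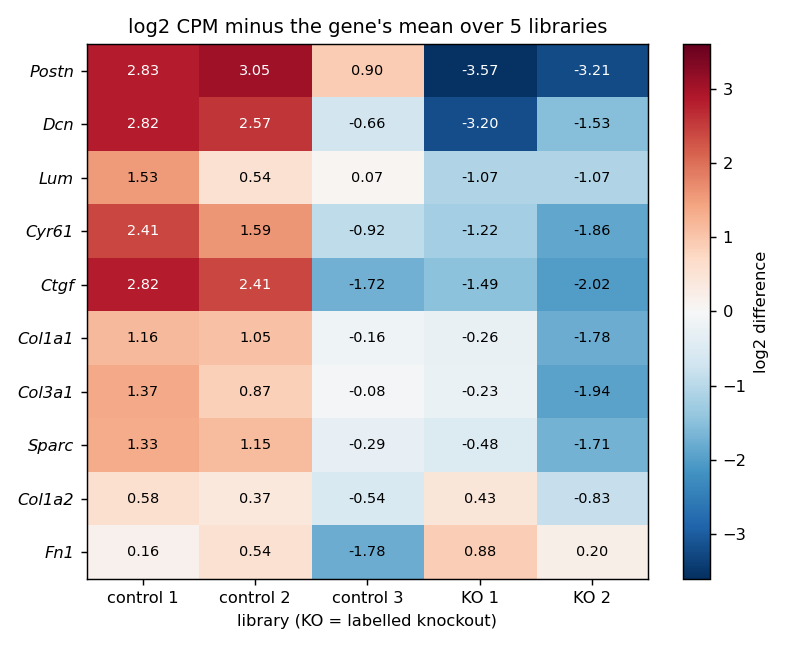
Log2 CPM (prior count 2) of each matrix gene in each library, centred on the mean of that gene over all 5, with the value in each cell (red above, blue below the mean). Controls 1 and 2 are above the mean for all 10 genes, whereas control 3 is between 0.90 for Postn and -1.78 for Fn1.

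Markers of fibroblasts outside the matrix were scarce in every library. Of 20 such markers, 5 were abundant enough to be tested, Dpt and Tcf21 were at 0 in all 5 libraries, and Twist1, a fibroblast transcription factor gene, was at 0 to 0.440 CPM. Pdgfra, the receptor gene of fibroblasts and oligodendrocyte precursors, was at 4.84, 5.07 and 0.149 CPM in controls 1 to 3, 3.63 CPM in KO1 and 2.43 CPM in KO2, with overlap. The list summed to 22.2, 15.6 and 4.98 CPM in the controls, 16.9 CPM in KO1 and 10.2 CPM in KO2, so its sum did not separate the groups. Of the tested markers 4 were negative and 1 positive (median log2 fold change -1.06), with 1 below and 1 above every control. The median was -0.15 without control 1, -0.41 without control 2 and -1.72 without KO1. The positive one was Pi16, a marker of adventitial fibroblasts, at 3.75 CPM in KO1, 3.46 CPM in KO2 and 0 to 0.372 CPM in the controls (adjusted p 0.00192 by DESeq2 and 0.262 by edgeR). Zeros in this table are not always a sign of an absent cell type, since Jund, a widely expressed gene, was also at 0 in every library. The part of fibroblasts in the levels of the 10 genes was not tested.

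Mural cell markers summed to 78.3, 99.5 and 21.0 CPM in controls 1 to 3, 30.1 CPM in KO1 and 11.2 CPM in KO2, with Kcnj8 and Higd1b of 14 markers at 0 throughout. Of 5 tested, 4 were negative, 1 (Pdgfrb) lay below and 1 (Notch3) above every control (median log2 fold change -1.52, and -0.33 without control 1). Cspg4, a proteoglycan gene shared with oligodendrocyte precursors, supplied most of the sum, at 45.1, 82.3 and 12.9 CPM in the controls, 13.8 CPM in KO1 and 2.32 CPM in KO2. Tagln, a smooth muscle actin-binding protein gene, and Acta2, the smooth muscle actin gene, were at 2.01 to 23.4 CPM with overlap. Notch3 stood higher, at 6.60 CPM in KO1, 1.24 CPM in KO2 and 0.0634 to 0.377 CPM in the controls (adjusted p 0.0145 by DESeq2 and 0.370 by edgeR). Choroid plexus epithelium markers, with 8 of 8 above every control, summed to 171 CPM in KO1, 227 CPM in KO2 and 7.54 to 27.1 CPM in the controls. Oligodendrocyte lineage markers summed to 10700, 9710 and 1300 CPM in controls 1 to 3, 12600 CPM in KO1 and 4650 CPM in KO2, so control 3 was the lowest library and KO1 the highest. The part of these cell types in the levels of the matrix genes was not tested.

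**Figure D5:**
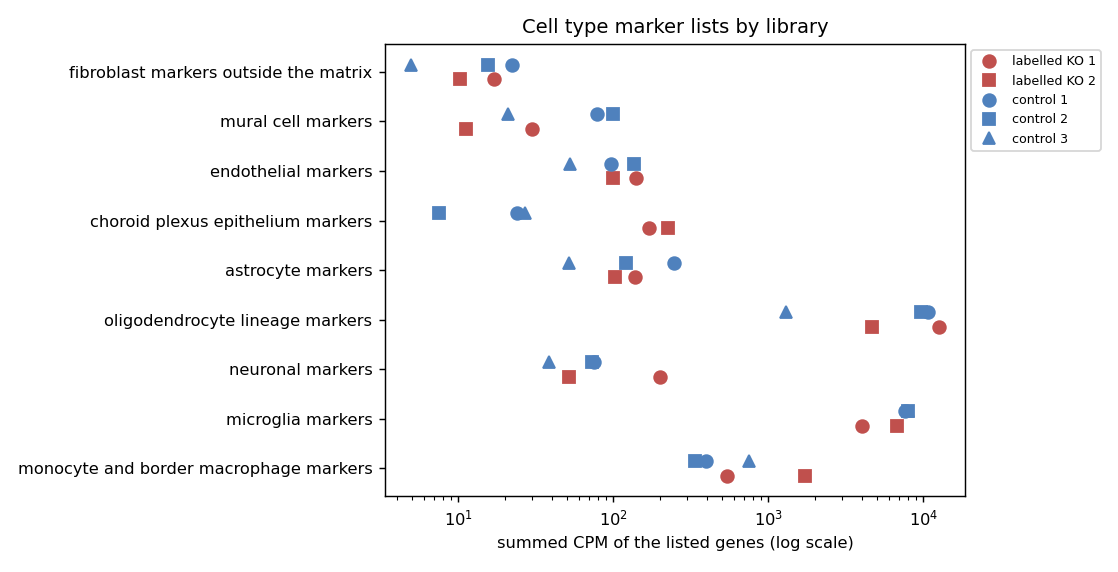
Summed CPM (log axis) of each list of cell type markers in the 3 controls (blue) and in KO1 and KO2 (red), 1 symbol per library. The fibroblast list overlaps between groups at 4.98 to 22.2 CPM, and control 3 is the lowest library for the fibroblast, endothelial, astrocyte, oligodendrocyte and neuronal lists.

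The other genes of the matrix did not share a direction, and edgeR called 0 of them. Among the 14 tested fibrillar and fibril-associated collagens outside the members, 7 were negative and 7 positive (median log2 fold change -0.03, -1.18 without KO1 and 0.55 without control 2), with 1 below every control and 2 above. The one below was Col5a1, whose chain nucleates collagen I fibrils, at 7.29, 10.3 and 2.45 CPM in controls 1 to 3, 2.08 CPM in KO1 and 1.24 CPM in KO2. Above the controls were Col8a1 and Col8a2, encoding the short-chain collagen VIII of vessel walls and cornea. KO1 held 30.4 CPM of Col8a1 and KO2 8.38 CPM, where the controls held 2.38 to 3.74 CPM (adjusted p 0.00481 by DESeq2 and 0.370 by edgeR). For Col8a2 these levels were 11.8, 4.22 and 0.127 to 0.669 CPM (adjusted p 6.03e-05 by DESeq2 and 0.288 by edgeR). Col14a1, Col11a2 and Col16a1, the most abundant genes of this list, overlapped between groups.

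Among 7 tested proteoglycan genes other than Dcn and Lum, 6 were positive, 4 lay above every control and 1 below (median log2 fold change 1.29, 0.83 to 1.76 with each library left out, and 0.40 with a filter of at least 1 CPM in 3 libraries). Fmod, encoding fibromodulin, a close relative of lumican, was counted 75 and 32 times in KO1 and KO2 and 3, 2 and 0 times in controls 1 to 3 (adjusted p 0.00205 by DESeq2 and 0.262 by edgeR). Prelp, another leucine-rich matrix protein gene, was counted 85 and 26 times in KO1 and KO2 and 8, 2 and 5 times in the controls (adjusted p 0.0400 by DESeq2 and 0.414 by edgeR). Bgn went with Dcn instead. It encodes biglycan, the nearest relative of decorin, and was at 11.9, 7.03 and 4.09 CPM in controls 1 to 3, 1.61 CPM in KO1 and 1.68 CPM in KO2, a log2 fold change of -2.15 (SE 0.568; adjusted p 0.0201 by DESeq2 and 0.478 by edgeR). Of the brain proteoglycan genes, Bcan and Vcan overlapped, and Ncan was at 27.3 CPM in KO1, 21.5 CPM in KO2 and 2.16 to 15.5 CPM in the controls.

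Among 13 tested matricellular genes outside the members, 9 were negative, 1 lay below every control and 0 above (median log2 fold change -0.30). Tgfbi, the closest relative of Postn, was at 170.5, 220 and 91.1 CPM in controls 1 to 3, 224 CPM in KO1 and 167 CPM in KO2, with overlap. Thbs1, encoding thrombospondin, was at 256, 206 and 14.6 CPM in the controls, 40.7 CPM in KO1 and 98.5 CPM in KO2, again lowest in control 3 among the controls. Spp1, encoding osteopontin and abundant in activated microglia, overlapped at 3977 to 9892 CPM. The one below every control was Wisp1, a CCN family gene near its detection limit, with 5 and 0 counts in KO1 and KO2 and 23, 19 and 5 in the controls.

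Basement membrane genes had 9 of 15 tested negative, 3 below and 3 above every control (median log2 fold change -0.43, and -1.50 without KO1). Lamc1, a laminin chain gene, was at 259 CPM in KO1, 180 CPM in KO2 and 110.5 to 160 CPM in the controls. Agrn, encoding the heparan sulphate proteoglycan agrin, lay below every control and Lamb2 overlapped. Col4a3 and Col4a4, encoding collagen IV chains of specialised basement membranes, stood above the controls (adjusted p 0.0193 and 0.0467 by DESeq2, 0.340 for each by edgeR). Elastic fibre genes had 4 of 11 negative, 2 below and 2 above every control (median 0.42, and -0.55 without KO1). Emilin1, a glycoprotein gene of elastic fibres, was at 115 CPM in KO1, 137 CPM in KO2 and 9.44 to 31.05 CPM in the controls, a log2 fold change of 2.52 (SE 0.481; adjusted p 0.000594 by DESeq2 and 0.325 by edgeR). Ltbp1 and Ltbp3, whose products hold latent TGF-beta in the matrix, overlapped.

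Genes for collagen maturation and crosslinking were split evenly (21 tested, 12 negative, median log2 fold change -0.05, 4 below and 2 above every control). The most abundant, P4hb and Plod1, overlapped, and Plod3, a lysyl hydroxylase gene, lay below every control. Loxl3, a lysyl oxidase gene, was highest in control 3, at 14.1, 15.02 and 34.4 CPM in controls 1 to 3, 5.71 CPM in KO1 and 6.43 CPM in KO2 (adjusted p 0.0467 by DESeq2 and 0.503 by edgeR). Receptors for the matrix had 18 tested, 10 negative, 2 below and 1 above every control (median -0.05). Itgb1, the shared chain of many collagen and fibronectin receptors, overlapped at 572 to 790 CPM, as did Sdc3 and Cd36. Itga8, an integrin chain gene, was counted 236 and 93 times in KO1 and KO2 and 20 to 31 times in the controls (adjusted p 0.0132 by DESeq2 and 0.398 by edgeR).

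TGF-beta signalling is a known inducer of Postn, Col1a1 and Ctgf. Its ligands, receptors and response genes had 10 of 16 negative, with 3 below and 0 above every control (median log2 fold change -0.14). Tgfb1 overlapped at 386 to 546 CPM, as did Tgfbr2 and Ski.

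Of 17 tested genes used as YAP and TEAD targets, other than Cyr61 and Ctgf, 5 were negative, 1 lay below and 3 above every control, and the median log2 fold change was 0.11 (-0.28 without KO1). Axl, Myof and Asap1, the most abundant of them, had log2 fold changes of 0.03, 0.11 and 0.05. Immediate early genes, which like Cyr61 and Ctgf respond to stimulation within a short time, were negative in 19 of 20, with 11 below and 0 above every control (median -0.81, and -0.58 to -1.64 with each library left out). Fos was at 157, 117 and 116 CPM in controls 1 to 3, 24.9 CPM in KO1 and 26.8 CPM in KO2 (log2 fold change -2.32, SE 0.246; adjusted p 1.55e-10 by DESeq2 and 0.231 by edgeR). Egr1 was at 129.5, 112 and 95.5 CPM in the controls, 23.0 CPM in KO1 and 32.4 CPM in KO2 (adjusted p 1.24e-06 by DESeq2 and 0.231 by edgeR), and Klf6 also lay below every control while Atf3 and Junb overlapped. In control 3, Fos and Egr1 stood near the other controls. Dusp1, also of this list, was lower there, at 30.1 CPM against 92.3 and 68.4 CPM in controls 1 and 2. Cyr61 in control 3 was closer to KO1 than to control 1 or control 2, and Ctgf lay between KO2 and KO1.

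By the centred log2 distance used above, and among 9764 genes outside the members with a mean of at least 5 CPM, the 4 nearest to Cyr61 included Col5a2 (0.385), Tnc (0.402) and Slco2b1 (0.466). Col5a2, a fibrillar collagen gene, was at 19.55, 18.2 and 3.42 CPM in controls 1 to 3, 3.45 CPM in KO1 and 1.57 CPM in KO2. Tnc, the gene of matricellular tenascin C, was at 77.1, 79.1 and 7.81 CPM in the controls, 11.2 CPM in KO1 and 4.11 CPM in KO2. In each, controls 1 and 2 were high and the 3 other libraries low, as for Cyr61. The genes nearest to Sparc were Sall1 (0.181), a transcription factor gene of microglia, Gpr35 (0.233), Egln3 (0.286) and F11r (0.286). Sall1 was at 34.3, 32.1 and 12.3 CPM in the controls, 13.2 CPM in KO1 and 3.78 CPM in KO2, so control 3 and KO1 overlapped.

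Postn had no near match: its nearest genes, Mmp3 (1.07), Sall3 (1.21), Dusp1 (1.35) and Apoc1 (1.39), differed from it by more than 1 log2 unit. This distance grows with the size of a gene's differences between libraries, and no gene tested had a lower log2 fold change than Postn. Mmp3, encoding the matrix protease stromelysin, was at 11.6, 18.0 and 2.60 CPM in controls 1 to 3, 0.654 CPM in KO1 and 0 CPM in KO2. Dusp1, an immediate early phosphatase gene, was at 92.3, 68.4 and 30.1 CPM in the controls, 3.99 CPM in KO1 and 11.5 CPM in KO2. Nearest to Col1a2 were Smad7 (0.112), an inhibitor gene of TGF-beta signalling, Lzts2 (0.142), Cyp51 (0.151) and Pmepa1 (0.157), another inhibitor gene of that pathway. Nearest to Fn1 were Csf1 (0.213), Cadm2 (0.230), Ptprs (0.238) and Ddit4 (0.239). With 5 libraries and so many genes to choose from, such neighbours are a description only.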

How the data were processed

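RNA was sequenced from 5 libraries of mouse primary microglia (2 labelled knockout, 3 control). The authors deposited whole-number read counts per gene symbol, not normalized. The submitters' processing notes name FastQC, STAR, HTSeq and the build mm10; for tool versions, gene annotation and strand setting, nothing is given in the sources used here. Groups and numbers came from the titles, with control 3 numbered by library. Of 21983 symbols, 21962 (99.9%) matched GENCODE M21, 36 by a RefSeq synonym.

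From these counts, edgeR 4.0.16 (R 4.3.3) was run over all genes with filterByExpr, TMM, robust quasi-likelihood F tests, a prior count of 2 and Benjamini-Hochberg adjustment at 0.05. DESeq2 1.42.0, limma-voom (limma 3.58.1), other scalings and filters, a replicate block and each library left out were alternatives; DESeq2 with libraries left out and a second numbering in the block were added after seeing the data. The steps were tested on simulated data. A count of 0 is read as up to 3 counts, and intervals and floors cover counting error only. Libraries of a group differed beyond sampling noise (chi-square over its degrees of freedom 45.6 to 240), so none was counted as a duplicate.

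Members, lists and tests were chosen with earlier results of these data known. The genes named are all members, Ythdf2 and Cx3cr1, the 3 most abundant tested genes of each list, those called by DESeq2 (at most 4 a list) and the 4 nearest profiles; some that this rule names are not reported here. Col5a1, Wisp1, Twist1, P2ry12, Tmem119, Lyve1, Pdgfrb, Pecam1 and Abcb1a were picked after their values were seen.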

Additional observations from a re-analysis of the deposited data

How the results depend on the processing

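Of 132 log2 fold changes of members recomputed under alternatives, 128 moved by less than the spread between replicates. Without KO1, 3 moved by more: Col1a1 to -2.61, Col3a1 to -2.80 and Col1a2 to -1.07. Without KO2, Col1a2 turned to 0.21. Of 266 list medians, 24 moved by more than that spread. The cause was not tested. edgeR called 0 genes under every scaling and filter tried and with each library left out. DESeq2 called 232 genes and 4 members, and limma-voom 0. With libraries left out, DESeq2 called 87 to 458 genes and 1 to 6 members, with 87 genes without control 1, 93 without control 2 (Postn the only member in both), 171 without KO1, 307 without control 3 and 458 without KO2. Without KO1 or KO2 the lone library is assumed to vary like the controls. The number of members below every control was 7, 6 with library totals and 7 to 9 with a library left out. The number above every control was 0 to 1. Fewer libraries make a gap between the groups easier to reach, so the counts with a library left out cannot be set against the 7. The share over all genes was not computed for these alternatives. With the replicate block, edgeR called 4 genes, of which 2 were members (Postn and Ctgf), and the median of oligodendrocyte lineage markers turned to -0.40 and that of elastic fibre genes to -0.24. Control 3 was alone in its block, which took up its values. The group difference in that fit thus came from controls 1 and 2 with KO1 and KO2. Same-numbered libraries deviated from their group means with correlations of 0.148 and -0.562. With only KO1 and KO2 in their group, their deviations mirror each other, so these values cannot decide whether the numbers pair the libraries. The title of control 3 gives library number 3, used here, but also replicate 2. With the latter, chosen after seeing the data, KO2 and control 3 share a number (correlation 0.473) and the block called 0 genes. Without control 1 or control 2, Dcn fell below edgeR's filter on low counts and has no edgeR value. Depth limits Lum, Dcn and Postn, which rest on 16 counts in the controls and on 5 and 20 counts in the KO libraries.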

Other observations

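Lists of other cells that the preparation could hold gave mixed directions. Endothelial markers had 5 of 7 negative (median log2 fold change -0.75, and 0.05 without KO2), with Cldn5, Tie1, Emcn, Erg and Sox17 at 0 in every library and a sum of 52.5 to 136 CPM in the controls, 141 CPM in KO1 and 99.5 CPM in KO2. Vwf, the von Willebrand factor gene, was at 55.6 CPM in KO1, 81.8 CPM in KO2 and 8.25 to 18.6 CPM in the controls (adjusted p 0.000115 by DESeq2 and 0.262 by edgeR), while Flt1 and Kdr overlapped. Abcb1a also lay above every control, and Pecam1 lay below every control. Astrocyte markers were negative in 6 of 9 (median -0.51, and 0.04 without control 1) and neuronal markers positive in 6 of 6 (median 1.05, -0.20 without KO1 and 1.72 without KO2). Oligodendrocyte lineage markers were positive in 9 of 11 (median 0.30, but -0.54 without KO1 and -0.21 without control 3), with 0 genes clear of the controls. Microglia markers were negative in 8 of 11 (median -1.15, -0.47 to -0.91 without KO1 or any 1 control and -0.70 with a filter of at least 1 CPM in 3 libraries), with 3 below and 2 above every control. Monocyte and border macrophage markers were positive in 7 of 9 (median 1.12, 0.10 without KO2 and 1.72 without KO1), with Ace, Spn and F13a1 above every control and Lyve1 below every control.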
